A study of Mus musculus with 15 samples.

Results

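The genes described here are 31 genes of blood and lymphatic endothelium, the cells that line blood vessels and lymphatics, measured by RNA-seq in mouse intestine at E16.5, late in gestation. They were taken by symbol from a set list, and all 31 were found among the 36528 gene IDs of the 15 libraries. Tissue came from 3 genotypes with 5 libraries each, all on an Mlkl knockout background, so that every group lacked the pseudokinase that carries out necroptosis. The first carried a Casp8 knockin with the C362A substitution at the catalytic cysteine (C362A), the second a Casp8 knockout (knockout), and the third wildtype Casp8 (wildtype). Casp8 encodes caspase-8, the protease that starts death-receptor apoptosis and restrains necroptosis. The labels mark all C362A tissue as inflamed and all knockout and wildtype tissue as normal, so genotype and that label cannot be told apart. They name the tissue small intestine, give no sex or litter, and do not state that the libraries of a group came from separate animals, so p-values measure the spread between these libraries, which may be technical.

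Endothelial cells form the inner wall of every vessel and are held together by VE-cadherin, PECAM1 and claudin-5. VEGF receptors, TIE receptors, Notch ligands and apelin signalling guide their sprouting and sorting into arteries, veins and capillaries, while ETS and SOXF factors maintain their identity. Lymphatic endothelium branches from veins under the control of PROX1 and VEGFR3, and in the gut it forms the lacteals that carry absorbed fat. In mouse embryos, loss of Casp8 with necroptosis intact is lethal and is accompanied by failure of the vasculature, which makes vessel genes of interest on a background where Mlkl is absent.

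Libraries held between 31896399 and 38532127 counts and 22295 to 24039 genes with a count, and the 31 genes together took 0.121% to 0.163% of the counts of a library. Casp8 averaged 69.9 ± 3.41 CPM in the C362A group, 14.4 ± 1.65 CPM in knockout libraries and 70.1 ± 5.97 CPM in wildtype libraries (SD, n = 5 each), where CPM is counts per 1e6 counts after TMM scaling. Mlkl averaged 0.39 ± 0.26, 0.52 ± 0.12 and 0.51 ± 0.18 CPM in C362A libraries, knockout and wildtype libraries. The sample ID numbers in the labels form 2 runs of consecutive numbers, each with all 3 genotypes. Run 1 holds C362A replicates 2 and 5, knockout replicates 2 and 5 and wildtype replicates 1 and 3, and run 2 holds the other 3 libraries of each genotype. What the runs stand for is not given in the labels. C362A replicate 5 stood apart from the other C362A libraries in several of the genes below. Fits without it are given in later paragraphs, with log2 fold changes of single genes only for those called in them.

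None of the 31 genes differed between genotypes at an adjusted p under 0.05 in any of the 3 comparisons of the fit of all 15 libraries (quasi-likelihood test in edgeR, p-values adjusted by Benjamini-Hochberg over 18370 genes). In C362A against wildtype, Pecam1, Aplnr, Erg, Ets1, Kdr, Tek, Cdh5 and Cd93 were higher and Lyve1 was lower at an unadjusted p under 0.05. Log2 fold changes of the higher genes lay between 0.21 and 0.32. Over all genes tested, 8.08% were higher and 7.8% lower at that p. The 5 smallest adjusted p among the 31 were all 0.285. Knockout libraries lay close to wildtype for most of the genes. Kdr had the smallest unadjusted p there (edgeR), and all 31 genes had an adjusted p of 0.9999. In bulk tissue, a change in the number of endothelial cells and a change in RNA per endothelial cell cannot be told apart.

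All 31 genes were well above the filter on low counts. Per length, in the deposited RPKM (reads per kilobase and 1e6 reads, adjusted by a size factor per library) averaged over 15 libraries, Plvap, the protein of endothelial fenestral diaphragms, was highest at 45.8 RPKM, followed by Ramp2 at 42.6, Cd34 at 31, Aplnr at 30.8, Eng at 28.5, Cdh5 at 28.2 and Pecam1 at 27.3 RPKM. The ranges of these over libraries overlapped, with Plvap between 36.3 and 55.1 RPKM and Ramp2 between 34.2 and 50.5 RPKM, and Cdh5 between 22.3 and 37.7 RPKM and Pecam1 between 23.4 and 31.7 RPKM. At the low end were Sox17 at 1.48, Vwf at 1.37 and Prox1 at 0.69 RPKM, and Vwf, with a range of 0.57 to 2.97 RPKM, overlapped both. The defining markers of blood endothelium (Pecam1, Cdh5, Kdr and Tie1) had at least 1593 counts in every library, and the lymphatic markers Flt4, Lyve1 and Prox1 had at least 544, 378 and 123 counts.

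**Figure D1:**
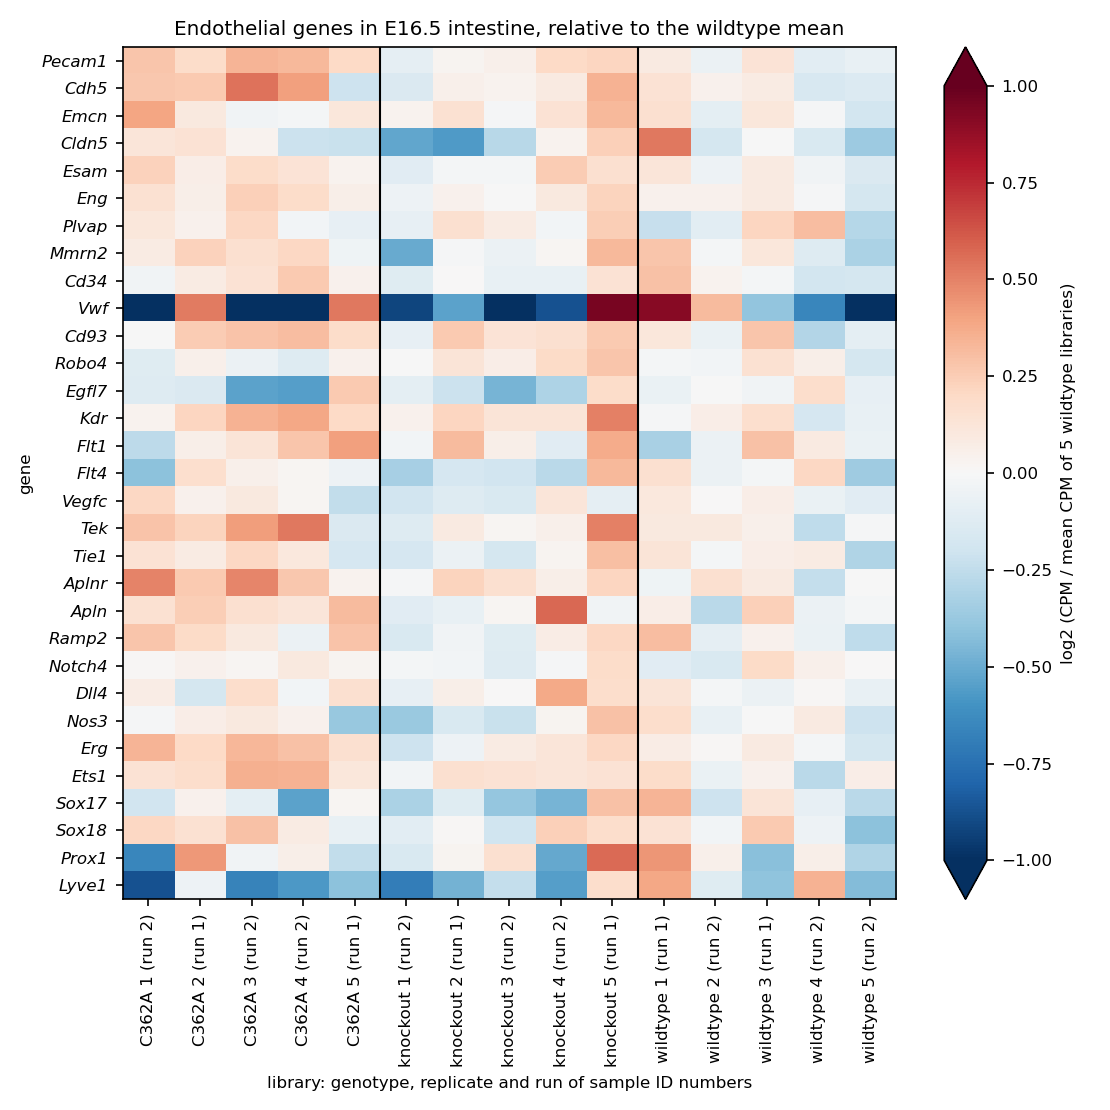
Log2 ratio of the CPM of each library (columns, with genotype, replicate and run of sample ID numbers) to the mean of the 5 wildtype libraries, for the 31 genes (rows); colours are cut at 1 in each direction. Pecam1 and Erg are red in all 5 C362A columns, Cdh5 turns blue in C362A replicate 5, and Vwf changes between blue and red within each genotype.

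In C362A against wildtype, edgeR called 0 of the 31 genes, beside 15 of 18370 genes or 0.0817% of all genes tested. DESeq2 and limma-voom also called 0 of the 31, beside 54 and 14 genes over the whole table. At an unadjusted p under 0.05, 8 of the 31 were higher and 1 was lower, against 8.08% of all genes higher and 7.8% lower. The log2 fold change was positive for 22 of 31 genes, against 51.4% of all genes, and its median was 0.12, against 0.01 for all genes. The 31 genes summed to between 1377 and 1559 CPM in C362A libraries (median 1468 CPM), between 1228 and 1589 CPM in knockout libraries (median 1378 CPM) and between 1198 and 1425 CPM in wildtype libraries (median 1317 CPM), so the sums overlapped.

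**Figure D2:**
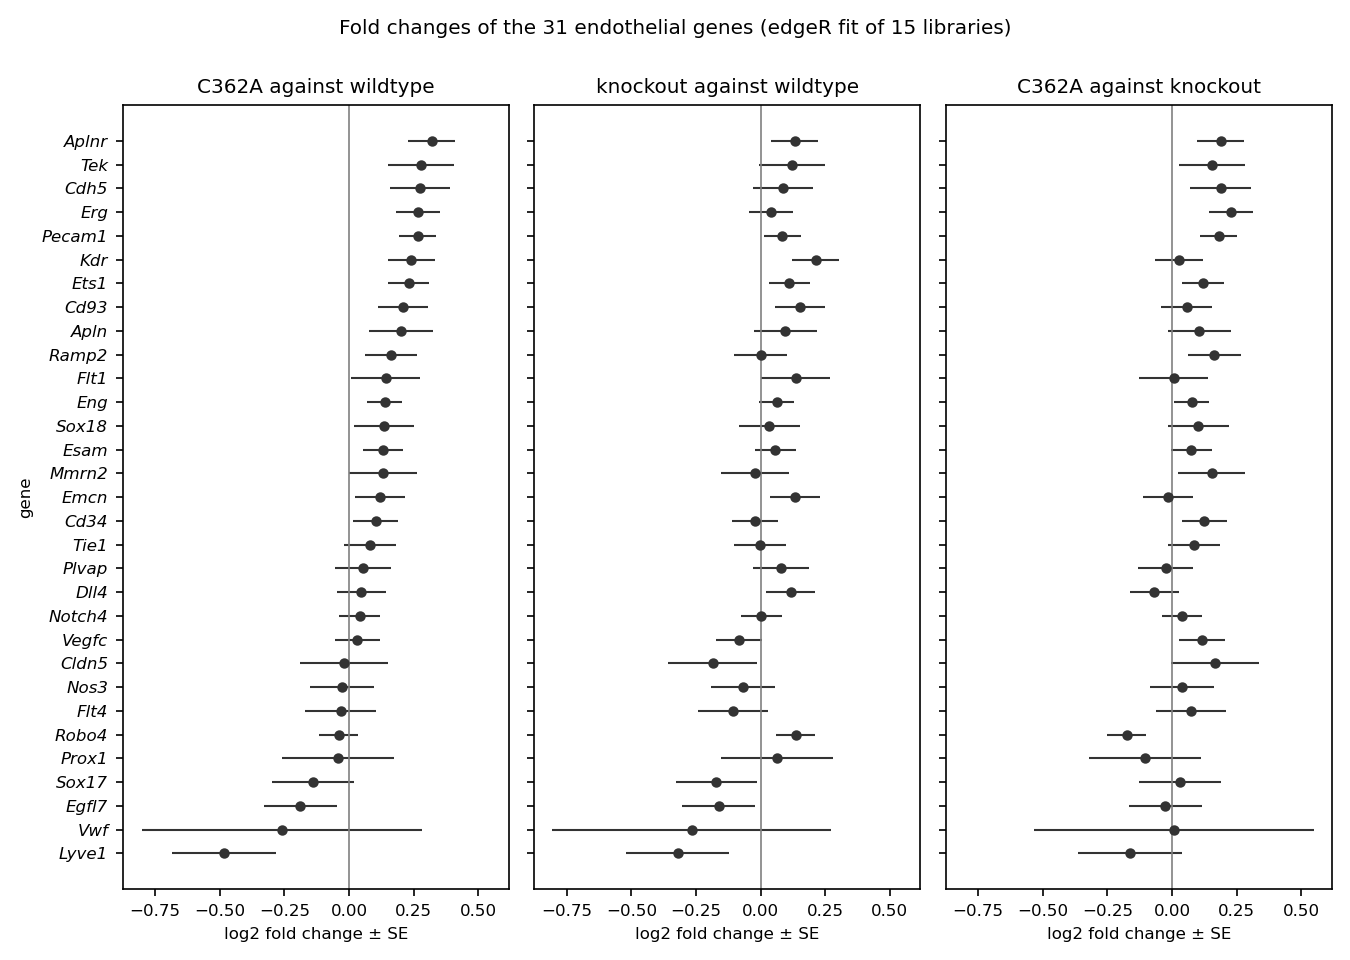
Log2 fold change ± SE (x axis) of the 31 genes (y axis, ordered by C362A against wildtype) in the 3 comparisons, from the fit of 15 libraries. Points run from Lyve1 at -0.48 to Aplnr at 0.32 in C362A against wildtype and lie mostly nearer 0 in the other comparisons, and Vwf has the widest error bar, with an SE of 0.54.

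Of the 13 surface and adhesion genes, Pecam1, Cdh5 and Cd93 were higher in C362A than in wildtype libraries at an unadjusted p under 0.05 (edgeR). Of all genes tested, 8.08% were higher at that p. Pecam1 (Entrez 18613, chr11:106654213-106715281, GRCm38), which encodes the PECAM1 adhesion molecule of endothelial junctions and is also made by platelets and some leukocytes, had 139, 131, 145, 144 and 132 CPM in C362A libraries, 108, 117, 119, 132 and 133 CPM in knockout libraries and 122, 110.4, 127, 107 and 109 CPM in wildtype libraries. All 5 C362A libraries were above all 5 wildtype libraries, while 2 knockout libraries reached into the C362A range. In C362A against wildtype the log2 fold change was 0.27 (SE 0.07, adjusted p = 0.285). Over all genes tested, 0.86% had every C362A library above every wildtype library and 0.299% had every one below, and among the 31 only Pecam1 and Erg did so.

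Cdh5 (Entrez 12562, chr8:104101613-104144504), VE-cadherin of the adherens junction, had 129, 128, 156, 143 and 93.1 CPM in C362A libraries, 97.3, 111, 110.2, 114 and 137 CPM in knockout libraries and 119, 110.3, 113, 96.2 and 97.8 CPM in wildtype libraries. The first 4 C362A libraries were above every wildtype library, and C362A replicate 5 was below every wildtype library. Its log2 fold change was 0.28 (SE 0.12, adjusted p = 0.293). Cd93 (Entrez 17064, chr2:148436651-148443535), a C-type lectin-like receptor of endothelium and myeloid cells, had 72.4, 86.6, 88.5, 89.97 and 82.4 CPM in C362A libraries, 68.6, 87.2, 79.7, 81.0 and 87.3 CPM in knockout libraries and 78.4, 69.4, 88.2, 59.3 and 67.9 CPM in wildtype libraries, which overlapped.

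Robo4 (Entrez 74144, chr9:37401902-37414023), a roundabout receptor of quiescent endothelium, was lowest in C362A by mean, as was Egfl7 among the surface genes. It had 28.0, 31.6, 29.3, 27.9 and 31.5 CPM in C362A libraries, 30.4, 33.3, 32.0, 34.9 and 36.9 CPM in knockout libraries and 30.0, 29.9, 33.9, 31.7 and 27.1 CPM in wildtype libraries. The remaining surface genes overlapped between genotypes. Eng, the TGF-beta co-receptor endoglin, averaged 114 ± 6.18, 108 ± 8.08 and 103 ± 7.18 CPM in C362A libraries, knockout and wildtype libraries, and Esam, an endothelial junction molecule, averaged 38.6 ± 2.14, 36.7 ± 3.82 and 35.2 ± 2.66 CPM. Plvap averaged 95.3 ± 7.67, 97.0 ± 9.02 and 91.8 ± 17.3 CPM, and Cd34, a sialomucin shared with haematopoietic progenitors and some mesenchyme, averaged 87.9 ± 6.87, 80.6 ± 5.95 and 81.8 ± 11.4 CPM, all in that order of genotypes. The ranges of these 4 genes overlapped between genotypes, and none had an unadjusted p under 0.05 in C362A against wildtype (edgeR).

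Emcn, the endomucin of veins and capillaries, averaged 23.6 ± 2.95, 23.9 ± 2.20 and 21.7 ± 2.16 CPM in C362A libraries, knockout and wildtype libraries. Cldn5, the claudin of endothelial tight junctions, averaged 19.9 ± 2.43, 17.7 ± 4.38 and 20.1 ± 5.17 CPM, and Mmrn2, an endothelial matrix protein, averaged 18.7 ± 1.39, 16.8 ± 3.32 and 17.0 ± 2.65 CPM in the same order. The adjusted p of C362A against wildtype was 0.525 for Emcn, 0.964 for Cldn5 and 0.611 for Mmrn2 (edgeR). Of the 13 surface and adhesion genes, 9 had a positive log2 fold change in C362A against wildtype, beside 51.4% of all genes. The median of the 13 was 0.12.

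Vwf (Entrez 22371, chr6:125552948-125686679), the von Willebrand factor stored by endothelial cells and platelets, was the most variable of the 31 in every genotype. It had 5.23, 20.6, 7.06, 6.43 and 20.8 CPM in C362A libraries, 7.64, 9.93, 6.50, 7.86 and 27.8 CPM in knockout libraries and 27.1, 17.9, 11.0, 9.18 and 6.79 CPM in wildtype libraries. The 2 high C362A libraries were those of run 1, and the highest knockout and wildtype libraries were also of run 1, though not every run 1 library was high. The coefficient of variation was 66.1% in C362A, 75.0% in knockout and 57.1% in wildtype libraries, while the median over the 31 genes was 9.55%, 12.7% and 11.2% and that over all genes tested was 13.7%, 11.2% and 13.3% in these genotypes. Summed markers of megakaryocytes and platelets, which also make Vwf, lay between 35.6 and 43.5 CPM in C362A libraries, 37.1 and 48.5 CPM in knockout libraries and 34.1 and 45.0 CPM in wildtype libraries. Their part in the spread of Vwf was not tested.

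Egfl7 (Entrez 353156, chr2:26581083-26592682), a secreted endothelial factor, hosts the microRNA miR-126, the best known endothelial microRNA. Mature microRNAs were not measured in these polyA libraries, so the sequence is given only to show what the locus also encodes. The mature strand (RefSeq, GRCm38.p6, chr2:26591402-26591423, plus strand) is written 5′ to 3′ with its seed, bases 2 to 8, in capitals.
mmu-miR-126a-3p: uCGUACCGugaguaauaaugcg
Egfl7 itself had 37.1, 36.6, 28.1, 27.8 and 48.5 CPM in C362A libraries, 38.0, 34.9, 29.5, 32.7 and 46.2 CPM in knockout libraries and 38.8, 40.5, 39.6, 45.8 and 38.3 CPM in wildtype libraries. Its log2 fold change was -0.19 in C362A against wildtype (SE 0.14, adjusted p = 0.489). Exons of Agpat2 and of other annotated genes cover part of the Egfl7 exons on both strands in GENCODE, and since the library kit does not mark the strand, reads from them cannot be told apart. Of the 31 genes, 8 share exonic bases with another annotated gene, 7 of them with one on the opposite strand. The shares were largest for Ramp2, with 33.4% of its exonic bases shared with Vps25 on the same strand, Nos3, with 25.2% shared with Gm15587, and Sox17, with 16.8% shared with Gm37587. Eng, Cd34, Dll4 and Prox1 share between 1.51% and 5.56% of theirs with an opposite-strand gene. These shares do not measure an error in the counts. The annotation behind the deposited counts is not given, so the effect of shared bases on these 8 genes is not known.

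Among the receptors and ligands, 8 of 9 had a positive log2 fold change in C362A against wildtype, beside 51.4% of all genes. The median of the 9 was 0.16. Aplnr (Entrez 23796, chr2:85136360-85139923), the apelin receptor of sprouting and venous endothelium, had the largest log2 fold change of the 31. It had 143, 122, 142, 122 and 104 CPM in C362A libraries, 101, 118, 113, 106 and 117 CPM in knockout libraries and 98.5, 113, 108, 86.0 and 101 CPM in wildtype libraries. C362A replicate 5 lay inside the wildtype range and the other 4 lay above it. It differed by a log2 fold change of 0.32 (SE 0.09, adjusted p = 0.285). Apln, its ligand, which is made by endothelial tip cells, averaged 21.4 ± 1.19 CPM in C362A libraries, 19.9 ± 4.39 CPM in knockout libraries and 18.6 ± 2.37 CPM in wildtype libraries.

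Kdr (Entrez 16542, chr5:75932827-75979072), VEGFR2, the main signalling receptor for VEGF-A, had 70.9, 80.2, 88.0, 90.5 and 79.3 CPM in C362A libraries, 71.4, 80.3, 75.7, 75.8 and 98.2 CPM in knockout libraries and 68.6, 72.5, 77.7, 61.5 and 65.8 CPM in wildtype libraries. Both mutant groups were higher than wildtype on average and both overlapped it. The log2 fold change was 0.24 in C362A against wildtype (SE 0.09, adjusted p = 0.285) and 0.21 in knockout against wildtype (SE 0.09, unadjusted p = 0.0313 in edgeR, adjusted p = 0.9999), and these comparisons share the wildtype libraries. Flt1, VEGFR1, which binds VEGF-A with little signalling, averaged 30.5 ± 5.19, 30.4 ± 4.55 and 27.7 ± 4.34 CPM in C362A libraries, knockout and wildtype libraries.

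Tek (Entrez 21687, chr4:94739086-94874976), the angiopoietin receptor TIE2, had 28.9, 27.7, 31.8, 34.3 and 21.5 CPM in C362A libraries, 21.7, 25.3, 24.1, 24.6 and 33.7 CPM in knockout libraries and 25.4, 25.4, 24.6, 19.9 and 23.6 CPM in wildtype libraries. As for Cdh5, 4 C362A libraries were above every wildtype library and C362A replicate 5 was not. Tie1, the partner receptor of TIE2, averaged 56.6 ± 5.32, 53.4 ± 7.55 and 53.5 ± 6.0 CPM in C362A libraries, knockout and wildtype libraries, with a log2 fold change of 0.08 in C362A against wildtype (SE 0.10). Ramp2, the co-receptor that turns the calcitonin receptor-like receptor into a receptor for adrenomedullin, averaged 41.0 ± 3.90, 36.6 ± 3.79 and 36.6 ± 5.50 CPM in that order. Among the arterial and flow-related genes, Notch4 averaged 22.0 ± 0.54, 21.4 ± 1.72 and 21.3 ± 2.07 CPM, the Notch ligand Dll4 17.1 ± 1.68, 17.9 ± 2.29 and 16.54 ± 0.97 CPM, and Nos3, the endothelial nitric oxide synthase, 13.3 ± 1.65, 13.0 ± 2.40 and 13.6 ± 1.38 CPM in C362A libraries, knockout and wildtype libraries. The log2 fold changes of these 3 genes in C362A against wildtype lay between -0.03 and 0.05, and Notch4 had the lowest coefficient of variation of the 31 in C362A libraries, at 2.45%.

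Erg (Entrez 13876, chr16:95359169-95586600), the ETS factor that maintains endothelial identity and junctions, had 20.0, 18.2, 20.0, 19.4 and 17.7 CPM in C362A libraries, 13.7, 15.3, 16.7, 17.2 and 18.3 CPM in knockout libraries and 16.7, 16.0, 16.8, 15.6 and 14.0 CPM in wildtype libraries. All C362A libraries were above all wildtype libraries, and the highest knockout library exceeded the 2 lowest C362A libraries. Its log2 fold change was 0.27 in C362A against wildtype (SE 0.09, adjusted p = 0.285). Ets1 (Entrez 23871, chr9:32636241-32757820), an ETS factor of endothelium and also of lymphocytes, had 79.9, 81.7, 92.4, 91.8 and 78.0 CPM in C362A libraries, 70.8, 80.9, 79.7, 78.7 and 79.9 CPM in knockout libraries and 82.1, 68.9, 74.3, 60.0 and 75.7 CPM in wildtype libraries. Only wildtype replicate 1 reached into the C362A range, and the log2 fold change was 0.23 (SE 0.08, adjusted p = 0.285).

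The SOXF factors overlapped between genotypes. Sox17, which marks arterial endothelium and is also made in endoderm, averaged 7.69 ± 1.15, 7.52 ± 1.71 and 8.48 ± 1.51 CPM in C362A libraries, knockout and wildtype libraries, and Sox18, which acts early in lymphatic specification, averaged 26.7 ± 2.55, 24.9 ± 3.15 and 24.3 ± 4.09 CPM. ETS factors bind a GGAA core, so the 6-base string AGGAAG was searched on both strands in RefSeq promoter windows of 300 bases, from 250 before to 50 after a start. Windows were listed for 17 of the 31 genes, and Pecam1, Cdh5, Esam, Plvap, Mmrn2, Vwf, Cd93, Aplnr, Ramp2, Nos3, Ets1, Sox17, Sox18 and Lyve1 were not among them. The string was in 11 of the 22 windows of the 17 genes (10 genes), against 35.4% of 32851 windows of all genes.

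The windows of Erg, Kdr and Robo4 are shown because, among genes with a window, they had the smallest or second smallest p in at least 1 comparison, and that of Prox1 because it defines lymphatic endothelium. Each is written 5′ to 3′ on the strand of its gene, with matches to AGGAAG or its reverse complement in capitals (RefSeq, GRCm38.p6). They are Erg at chr16:95459299-95459598, minus strand, the window with most matches of 3 listed starts, Kdr at chr5:75978406-75978705, minus strand, Robo4 at chr9:37401722-37402021, plus strand, and Prox1 at chr1:190170778-190171077, minus strand, 1 of 2 starts.
Erg: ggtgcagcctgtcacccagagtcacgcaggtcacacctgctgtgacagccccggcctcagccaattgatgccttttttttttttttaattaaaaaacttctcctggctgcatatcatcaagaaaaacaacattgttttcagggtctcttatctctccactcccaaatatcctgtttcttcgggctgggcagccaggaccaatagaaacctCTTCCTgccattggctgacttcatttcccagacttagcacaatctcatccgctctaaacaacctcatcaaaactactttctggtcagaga
Kdr: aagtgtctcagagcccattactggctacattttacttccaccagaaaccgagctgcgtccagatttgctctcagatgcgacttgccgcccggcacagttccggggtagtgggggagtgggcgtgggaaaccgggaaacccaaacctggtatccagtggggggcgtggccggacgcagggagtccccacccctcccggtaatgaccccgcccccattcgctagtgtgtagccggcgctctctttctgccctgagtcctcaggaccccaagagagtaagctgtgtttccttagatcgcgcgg
Robo4: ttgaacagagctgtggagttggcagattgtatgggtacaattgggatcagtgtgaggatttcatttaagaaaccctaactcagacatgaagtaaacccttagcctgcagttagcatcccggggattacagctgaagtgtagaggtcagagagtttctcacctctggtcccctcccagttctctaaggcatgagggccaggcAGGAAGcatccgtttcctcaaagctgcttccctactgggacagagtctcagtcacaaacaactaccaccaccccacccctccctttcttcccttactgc
Prox1: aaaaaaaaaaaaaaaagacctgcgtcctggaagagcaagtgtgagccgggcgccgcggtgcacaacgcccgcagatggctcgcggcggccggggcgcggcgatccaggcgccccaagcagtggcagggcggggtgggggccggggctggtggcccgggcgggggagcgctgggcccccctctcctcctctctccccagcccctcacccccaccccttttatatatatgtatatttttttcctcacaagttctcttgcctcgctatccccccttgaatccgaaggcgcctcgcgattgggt
Erg and Robo4 hold 1 match each and Kdr and Prox1 hold 0, which says only whether these letters are in the windows. Erg was higher and Robo4 lower in C362A than in knockout libraries by mean, and a relation of matches to levels was not tested.

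The 4 genes tied to lymphatics had a median log2 fold change of -0.04 in C362A against wildtype, and the other 27 genes a median of 0.13. Lyve1 (Entrez 114332, chr7:110850607-110862953), a hyaluronan receptor of lymphatic endothelium that some tissue macrophages also make, had 11.8, 20.7, 13.5, 14.4 and 16.2 CPM in C362A libraries, 13.3, 15.5, 18.2, 14.6 and 24.2 CPM in knockout libraries and 28.1, 19.7, 16.2, 27.4 and 15.9 CPM in wildtype libraries. C362A libraries were lower on average and the groups overlapped. The log2 fold change was -0.48 in C362A against wildtype (SE 0.20, adjusted p = 0.291), the most negative of the 31, and -0.32 in knockout against wildtype (SE 0.20, adjusted p = 0.9999).

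Prox1 (Entrez 19130, chr1:190118035-190170827), the transcription factor that specifies lymphatic endothelium and is also made in other gut cells such as enteroendocrine cells, had 3.83, 8.14, 5.86, 6.25 and 5.06 CPM in C362A libraries, 5.42, 6.12, 6.71, 4.21 and 8.90 CPM in knockout libraries and 8.18, 6.23, 4.49, 6.28 and 4.88 CPM in wildtype libraries. The 3 genotypes overlapped throughout, with a log2 fold change of -0.04 in C362A against wildtype (SE 0.22, adjusted p = 0.936). Flt4, VEGFR3, averaged 22.0 ± 3.13, 20.9 ± 4.15 and 22.6 ± 3.34 CPM in C362A libraries, knockout and wildtype libraries, and its ligand Vegfc, which mesenchyme also makes, averaged 22.4 ± 2.49, 20.6 ± 1.87 and 21.9 ± 1.35 CPM. Both differed by less than the spread between libraries.

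**Figure D3:**
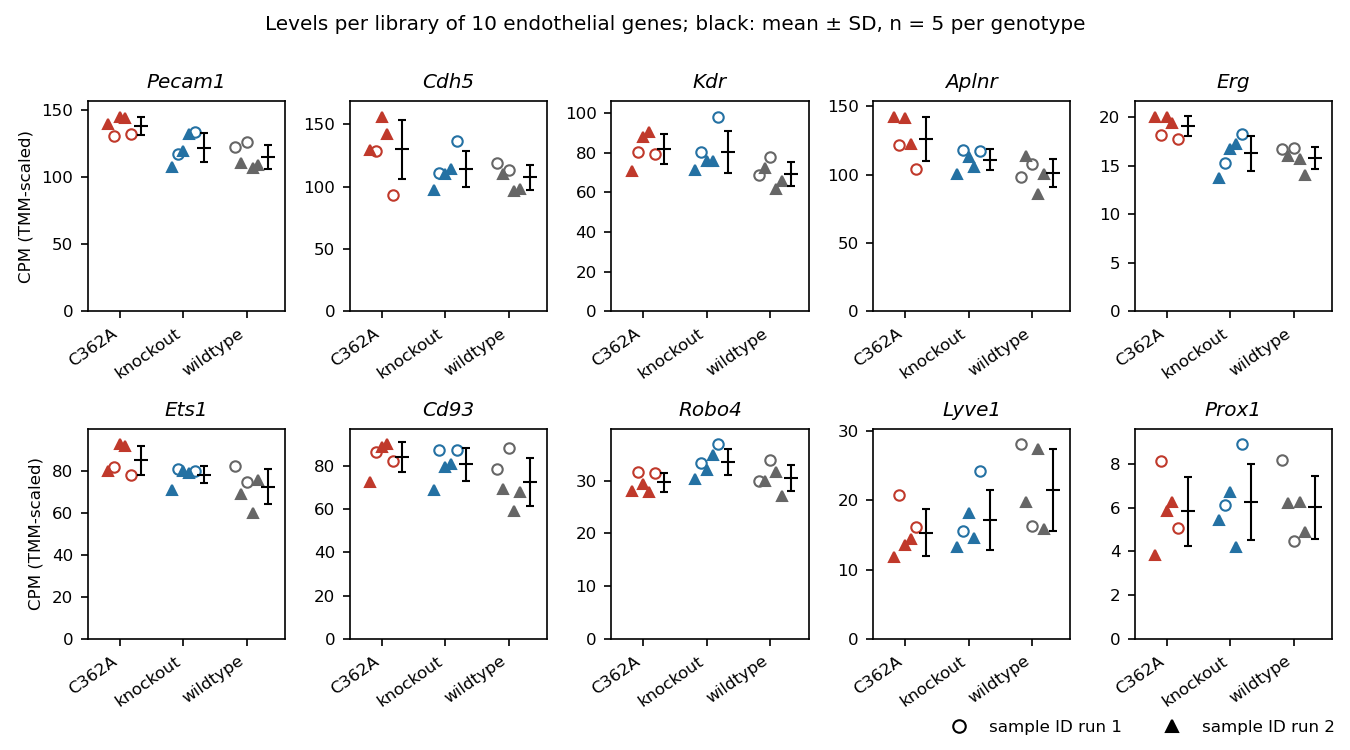
CPM (y axis, from 0) of 10 genes in each library of C362A, knockout and wildtype, with open circles for run 1 and filled triangles for run 2 of the sample ID numbers, and mean ± SD in black (n = 5). C362A points of Pecam1 and Erg lie above all wildtype points, and in Cdh5 one run 1 C362A library, at 93.1 CPM, lies below them all.

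Across the 15 libraries the lymphatic genes followed each other. Prox1 and Lyve1 correlated with Pearson r = 0.74 (permutation p = 0.00171) and Spearman rho = 0.72 (permutation p = 0.00349). Prox1 and Flt4 gave r = 0.77 and rho = 0.74 (permutation p = 0.00092 and 0.0027), and Lyve1 and Flt4 gave r = 0.76 and rho = 0.68 (permutation p = 0.00101 and 0.00736). Among the blood endothelial markers, Pecam1 and Cdh5 gave r = 0.78 and rho = 0.77, Pecam1 and Kdr r = 0.71 and rho = 0.67, and Cdh5 and Kdr r = 0.69 and rho = 0.57, with permutation p of 0.00059, 0.00293 and 0.00379 for r and 0.00113, 0.00776 and 0.0301 for rho. These were 6 relations, and adjusted over them the p-values of r lay between 0.00202 and 0.00379 and those of rho between 0.00678 and 0.0301. Without the 2 libraries farthest from the median of the first gene of the pair, r stayed between 0.57 and 0.71.

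Within run 1 (6 libraries) r was 0.84 for Prox1 and Lyve1, 0.78 for Prox1 and Flt4 and 0.85 for Lyve1 and Flt4, and within run 2 (9 libraries) it was 0.59, 0.71 and 0.64 for these pairs. Pecam1 and Cdh5 gave r = 0.94 in run 2 and 0.16 in the 6 libraries of run 1, a difference that was not tested. Pecam1 and Kdr gave 0.80 in run 2 and 0.54 in run 1, and Cdh5 and Kdr 0.86 in run 2 and 0.43 in run 1. With each genotype centred on its mean, r over the 15 libraries lay between 0.64 and 0.86 for the 6 pairs. Such values share the depth and tissue makeup of a library.

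**Figure D4:**
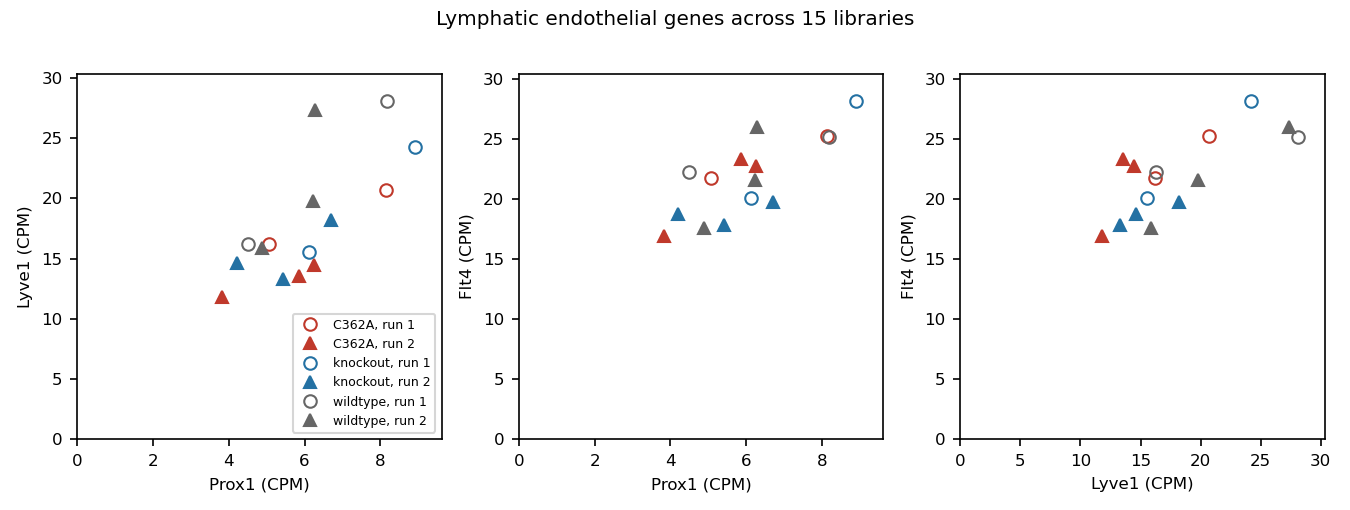
CPM of Prox1 and Lyve1, Prox1 and Flt4, and Lyve1 and Flt4 against each other in the 15 libraries (both axes from 0; colours give genotype, symbols the run of sample ID numbers). The points rise together, with r of 0.74, 0.77 and 0.76, and knockout replicate 5 is at or near the top of each panel.

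As a description over all 465 pairs of the 31 genes, with each genotype centred on its mean, 402 pairs had a positive r and the median was 0.39. Mmrn2 (median r with the other 30 genes 0.61), Pecam1 (0.58), Cdh5 (0.55) and Tie1 (0.54) moved most with the others. Egfl7 (-0.05), Flt1 (0.06) and Apln (0.12) moved least with them. Knockout replicate 5 had the highest sum of the 31 genes of all libraries, 1589 CPM, and wildtype replicate 5 the lowest, 1198 CPM.

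C362A and wildtype libraries were also compared within each run of sample ID numbers. Within run 2, with 3 libraries each, edgeR called 8 of the 31 genes, beside 13.5% of all genes tested. Cdh5 was higher by 0.49 (SE 0.10, adjusted p = 0.00995), Tek by 0.46 (adjusted p = 0.0227), Aplnr by 0.44 (adjusted p = 0.0235) and Pecam1 by 0.39 (adjusted p = 0.0145) on the log2 scale in C362A, and Erg (0.38), Ets1 (0.37) and Cd93 (0.35) also rose. Lyve1 fell by 0.66 on the log2 scale (SE 0.18, adjusted p = 0.0381). Those 7 higher genes stand beside 5.07% of all genes called higher in run 2, and the 1 lower gene beside 8.44% called lower.

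Within run 1, with 2 libraries each, edgeR called 0 of the 31 genes and 0 of all genes. An unadjusted p under 0.05 was reached by 0 of the 31, beside 225 higher and 93 lower of 18629 genes. Positive values were found for 12 of 31, beside 9315 of 18629 genes, and the median of the 31 was -0.02. In run 2, 24 of 31 were positive, beside 9527 of 18343 genes. The median of the 31 there was 0.23, beside 0.02 for all genes. Cdh5 had a log2 fold change of -0.07 in run 1 (SE 0.17), where C362A replicate 5 is 1 of the 2 C362A libraries, and Pecam1 had 0.07 (SE 0.11). In run 1, Y chromosome transcripts were present in 0 of the 2 C362A libraries and in both wildtype libraries, so genotype and sex cannot be told apart there, while in run 2 they were present in 2 of 3 libraries of each of these genotypes. The difference between runs was tested as an interaction of genotype and run over all 15 libraries, an alternative added after the data were seen. By edgeR 0 of the 31 genes passed it, beside 1.42% of all genes. At an unadjusted p under 0.05 there were 5 genes with a larger and 1 with a smaller log2 fold change in run 2, beside 6.48% and 10% of all genes. Cdh5 had the largest such difference among the higher ones, 0.56 (SE 0.19, adjusted p = 0.175), and the 1 in the other direction was Egfl7 at -0.54 (SE 0.23, adjusted p = 0.267).

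**Figure D5:**
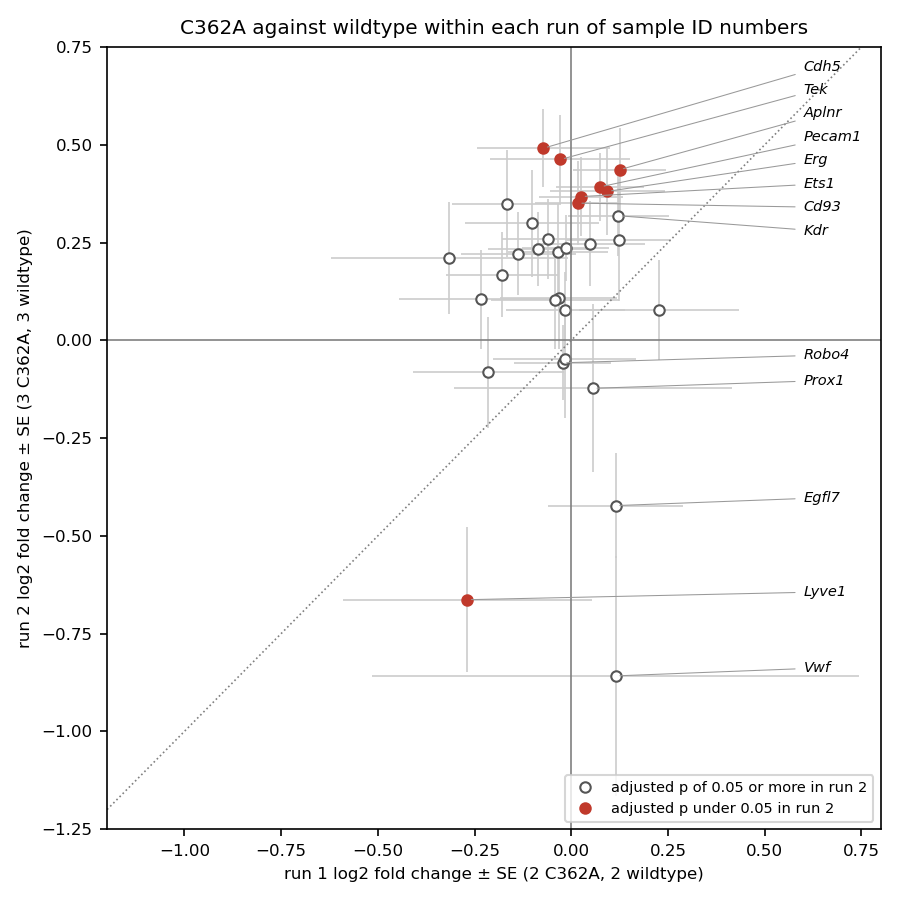
Log2 fold change ± SE of C362A against wildtype for the 31 genes within run 1 (x axis, 2 libraries each) and run 2 (y axis, 3 libraries each) of sample ID numbers; the dotted line marks equal values. The 8 genes called in run 2 are filled, 7 above 0.35 and Lyve1 at -0.66 in run 2, and all 8 lie between -0.27 and 0.13 in run 1.

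Of the single libraries left out in turn, only C362A replicate 5 changed the count of calls among the 31 in this comparison. Without it edgeR called 4 of the 31 genes in C362A against wildtype, all higher, beside 9.76% of all genes (1807 of 18510) in either direction and 4.29% higher. They were Aplnr (log2 fold change 0.38, adjusted p = 0.0209), Cdh5 (0.37, adjusted p = 0.0312), Pecam1 (0.28, adjusted p = 0.0363) and Erg (0.29, adjusted p = 0.0482), and the median of the 31 was 0.12. This library also had the highest sum of enterocyte markers among the C362A libraries, 12612 CPM, against at most 7926 CPM in the other 4.

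Markers of some other cell types also differed on average between C362A and wildtype libraries. The 8 enterocyte markers summed to between 5220 and 12612 CPM in C362A libraries (median 7417 CPM), between 13119.9 and 15962 CPM in knockout libraries (median 14249 CPM) and between 7452 and 26367 CPM in wildtype libraries (median 13274 CPM), and all 8 had a negative log2 fold change in C362A against wildtype, with a median of -0.61 and 0 called by edgeR, 7 at an unadjusted p under 0.05. The 6 fibroblast markers (median 0.24) and 6 smooth muscle markers (median 0.20) were all positive, as were 6 of 7 pericyte markers (median 0.19), with 0 called and 4, 3 and 1 at an unadjusted p under 0.05. The median of the 31 genes, 0.12, was below these 3 medians. Over all genes tested, 51.4% had a positive log2 fold change and 0.0817% were called. At an edgeR p below 0.05 before adjustment, 8.08% rose and 7.8% fell. Medians were 0.13 for neuron and glia markers, -0.09 for epithelium, -0.13 for mesothelium and -0.21 for erythroid markers. The megakaryocyte and platelet list and the liver and pancreas list both had a median of -0.11. None of the genes in these lists were called. Of the 10 macrophage markers 9 were positive, with 1 called, Adgre1 (0.75, adjusted p = 0.0361), and their sum lay between 254 and 294 CPM in C362A libraries, 239 and 302 CPM in knockout libraries and 199.9 and 314 CPM in wildtype libraries. Transcripts of the Y chromosome were present in 2 of the 5 C362A libraries, in 4 of the 5 knockout libraries and in 4 of the 5 from wildtype. The part of these other cells and of sex in the values of the 31 genes was not tested beyond the covariate fits in the closing section.

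In knockout against wildtype, edgeR called 0 of the 31 genes, beside 0.0381% of all genes. DESeq2 and limma-voom called 0 of the 31 as well, beside 13 and 7 genes over the whole table. At an unadjusted p under 0.05 there was 1 of the 31, Kdr, beside 2.43% of all genes. Positive values were found for 20 of 31 genes, against 48.2% of all genes, with a median of 0.06, and the SE of single genes lay between 0.07 and 0.54. After Kdr, the smallest p belonged to Robo4 (0.14, SE 0.08), Lyve1, Cd93 (0.15, SE 0.10) and Aplnr (0.13, SE 0.09), all with an adjusted p of 0.9999. Pecam1 (0.08, SE 0.07), Cdh5 (0.09, SE 0.12) and Prox1 (0.06, SE 0.22) lay nearer to 0 in units of SE. No gene of the 31 had the 5 knockout libraries clear of the 5 wildtype libraries, as 0.702% of all genes did. Within run 1 and within run 2, 0 of the 31 were called, beside 0.00537% and 0.00545% of all genes.

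In C362A against knockout, which sets catalytically inactive caspase-8 against none, edgeR called 0 of the 31 genes, beside 0.0109% of all genes. DESeq2 and limma-voom called 0 of the 31 as well, beside 27 and 3 genes over the whole table. Erg (0.23, SE 0.09, adjusted p = 0.317) and Pecam1 (0.18, SE 0.07, adjusted p = 0.319) were higher and Robo4 (-0.18, SE 0.08, adjusted p = 0.33) was lower at an unadjusted p under 0.05, beside 6.49% of all genes higher and 7.41% lower. Aplnr (0.19, SE 0.09) and Cdh5 (0.19, SE 0.12) followed, while Kdr (0.03, SE 0.09), Prox1 (-0.11, SE 0.22) and Lyve1 (-0.16, SE 0.20) lay within 1 SE of 0. The log2 fold change was positive for 24 of 31 genes, against 53.2% of all genes, with a median of 0.07. Within run 1 the median of the 31 was -0.07, and within run 2 it was 0.16. None of the 31 separated the 5 C362A from the 5 knockout libraries, as 2.85% of all genes did. Without C362A replicate 5, edgeR called 0 of the 31 and 4.35% of all genes, and within run 2 it called 0 of the 31 and 2.03% of all genes, with Cdh5 nearest (0.41, adjusted p = 0.054).

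Beyond the 31, a list of 78 further genes of vessel signalling and identity, of which 74 passed the filter, was tested in the same fit. In C362A against wildtype edgeR called 0 of the 74, beside 0.0817% of all genes. Its unadjusted p was under 0.05 for 13 higher and 0 lower genes, beside 8.08% and 7.8% of all genes. DESeq2 called 1 of the 74, beside 54 genes over the whole table, and limma-voom called 0, beside 14. Of the 74, 52 were positive, beside 51.4% of all genes, with a median of 0.10. The gene called by DESeq2 was Nrp2, a co-receptor for VEGF-C in lymphatic and venous endothelium that is also made by mesenchyme and neurons. It averaged 196 ± 13.4 CPM in C362A libraries, 163 ± 1.74 CPM in knockout libraries and 157 ± 18.3 CPM in wildtype libraries, with a log2 fold change of 0.33 in C362A against wildtype (SE 0.08, adjusted p = 0.256) and 0.27 in C362A against knockout (SE 0.08, adjusted p = 0.317). Stab2, a scavenger receptor of sinusoidal and lymphatic endothelium, averaged 3.77 ± 1.49 CPM in C362A libraries, 2.74 ± 0.95 CPM in knockout libraries and 2.06 ± 0.60 CPM in wildtype libraries, with a log2 fold change of 0.87 in C362A against wildtype (SE 0.28, adjusted p = 0.285).

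By role, 4 of 4 genes of the apelin and adrenomedullin systems were positive in C362A against wildtype (median 0.38), 12 of 16 junction and surface genes (median 0.17) and 10 of 11 transcription factors (median 0.16). Positive values were also found for 4 of 6 VEGF ligands and co-receptors (median 0.11), 3 of 4 angiopoietin genes (median 0.10), 4 of 7 lymphatic genes (median 0.10), 3 of 5 venous and capillary genes (median 0.09), 5 of 8 BMP, TGF and flow genes (median 0.04) and 7 of 13 Notch and arterial genes (median 0.01). Of all genes, 51.4% were positive, and differences between roles were not tested. Without C362A replicate 5 edgeR called 3 of the 74, Itga9 (0.39) and Nrp2 (0.36) higher and Vegfa (-0.63) lower, and within run 2 it called 12, of which 10 were higher, Stab2 most (1.12), and 2 lower, Reln (-1.08) and Vegfa (-0.76), beside the shares of all genes given above. Vegfa, the main ligand of VEGFR2 and largely a product of cells outside the vessel wall, had adjusted p of 0.0401 and 0.0183 in these fits. In the edgeR fit of all 15 libraries, 0 of the 74 genes, Vegfa included, were lower at an unadjusted p under 0.05.

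In knockout against wildtype edgeR called 0 of the 74, where an unadjusted p under 0.05 was reached by 1 higher gene and 1 lower gene, beside 2.43% of all genes, and so did DESeq2 and limma-voom. The smallest p were those of Efnb2, the arterial ephrin (0.16, SE 0.07), Klf4, a flow-responsive factor also made by epithelium (-0.26, SE 0.12), and Adgrl4, an adhesion receptor of vessels (0.25, SE 0.13), all with an adjusted p of 0.9999. In C362A against knockout 0 of the 74 were called, where 4 higher genes and 1 lower gene reached an unadjusted p under 0.05, beside 6.49% and 7.41% of all genes, and DESeq2 and limma-voom called 0. Hes1, a Notch target that epithelial progenitors also express, was among the smallest p there (0.36, SE 0.11, adjusted p = 0.317).

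Of the adhesion molecules of activated endothelium, 1 passed the test. Madcam1, the gut vessel addressin, averaged 23.1 ± 3.03 CPM in C362A libraries, 17.2 ± 0.79 CPM in knockout libraries and 14.8 ± 2.75 CPM in wildtype libraries and rose in C362A against wildtype (0.64, SE 0.12, adjusted p = 0.0431), although 16 of 26 alternatives put its adjusted p above the threshold. Vcam1, which captures leukocytes and is also made by stroma, averaged 27.8 ± 5.54, 20.0 ± 4.36 and 15.6 ± 2.10 CPM in C362A libraries, knockout and wildtype libraries (C362A against wildtype 0.83, SE 0.16, adjusted p = 0.0583). In C362A against knockout the log2 fold changes were 0.43 for Madcam1 and 0.48 for Vcam1, both with an adjusted p of 0.317. In knockout against wildtype they were 0.21 and 0.35, with an adjusted p of 0.9999. Of the 5 listed adhesion genes that passed the filter, all 5 were positive in C362A against wildtype with 1 called. Over all genes tested, 51.4% were positive and 0.0817% were called. The list includes Selplg, the selectin ligand that leukocytes carry. It was chosen with earlier results of these data known, so these counts are a description only.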

How the data were processed

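RNA was extracted on columns with DNase treatment, and polyA libraries made with an unstranded TruSeq v2 kit were sequenced as single-end 50 bp reads, per the labels' protocols. Reads were aligned with GSNAP to GRCm38, per the submitters' processing notes, with version and annotation not given in the sources used here. The deposited counts are reads per Entrez gene, and the deposited RPKM values carry a size factor per library, per the file headers. RefSeq named 31049 of 36528 IDs, and the rest held 1.69% to 1.96% of counts.

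Counts were fitted with edgeR 4.0.16 (R 4.3.3) by the quasi-likelihood test with TMM factors, filterByExpr (minimum count 10, minimum total 15) and robust estimates, with all 15 libraries in 1 fit of genotype means. In all, 18370 genes passed (biological coefficient of variation 0.174), and p-values were adjusted by Benjamini-Hochberg over them, with a threshold of 0.05. SE is the log2 fold change divided by the square root of F. Levels are TMM-scaled CPM. Correlations used permutation tests of 100000 resamples, two-sided. DESeq2 1.42.0, limma 3.58.1 (voom, and log2(RPKM + 0.1)) and the other settings of the closing section were alternatives. The fit was also run on simulated counts with larger changes than those of the endothelial genes, which does not measure its power for them. Replicate numbers follow accession order and pair no libraries.

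The 31 genes and all lists were chosen with earlier results of these data known. Values per library are given for Pecam1, Cdh5, Kdr, Prox1, Lyve1, every called gene of the 31 and the 5 smallest p of the 31 in each comparison. From the further lists every called gene and the 4 smallest p per comparison were named. Vwf, Egfl7, Tek, Itga9, Vegfa, Adgre1 and Selplg were named after their values were seen. The spread between libraries includes counting error.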

Additional observations from a re-analysis of the deposited data

Results flagged for a closer look

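In 6 of the 93 groups checked (31 genes in 3 genotypes), 1 library stood apart from the other 4 by a gap above Dixon's 95% critical value of 0.71 of the group's range. Chance flags about 1 in 20 groups. Vwf was at 27.8 CPM in knockout replicate 5, against 6.5 to 9.93 CPM in the other knockout libraries. Flt4 was at 28.2 CPM in the same library, against 17.9 to 20.1 CPM. Apln was at 27.7 CPM in knockout replicate 4, against 17.2 to 18.9 CPM in the others. Ets1 was at 70.8 CPM in knockout replicate 1, against 78.7 to 80.9 CPM. Egfl7 was at 45.8 CPM in wildtype replicate 4, against 38.3 to 40.5 CPM. Nos3 was at 10.4 CPM in C362A replicate 5, against 13.5 to 14.5 CPM in the other C362A libraries.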

How the results depend on the processing

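No paired analysis was possible because the labels carry no replicate numbers. The count of called genes among the 31 was 0 in every comparison under the alternatives run, except in C362A against wildtype within run 2 of the sample ID numbers (8) and without C362A replicate 5 (4). With single libraries left out, genes called over the whole table ranged from 7 to 1807 in C362A against wildtype, from 1 to 8 in knockout against wildtype and from 2 to 805 in C362A against knockout. The called members of the 31 then ranged from 0 to 4, from 0 to 0 and from 0 to 0, and their median log2 fold change from 0.062 to 0.151, from -0.00347 to 0.0895 and from 0.0368 to 0.129, in that order of comparisons. In C362A against wildtype the genes called over the whole table were 54 with DESeq2, 7 with a Y-linked covariate, 0 in run 1, 2478 in run 2 and 7 at a threshold of 0.01, and the median of the 31 was -0.0225 in run 1. In knockout against wildtype they were 13 with DESeq2, 4 with limma on RPKM, 3 with a Y-linked or an erythroid covariate, and 1 with only these 2 groups, in run 1, in run 2 or at a threshold of 0.01. In C362A against knockout they were 27 with DESeq2, 4 with only these 2 groups or limma on RPKM, 1 in run 1 and 372 in run 2. The cause was not tested.

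Some directions turned. In run 1, Cdh5 was at -0.072 and Prox1 at 0.0557 in C362A against wildtype, and Aplnr at -0.0664, Cdh5 at -0.167 and Kdr at -0.166 in C362A against knockout. Prox1 was at -0.0859 in knockout against wildtype in run 2, and Kdr at -0.00467 with the epithelium and -0.00175 with the erythroid covariate in C362A against knockout. With single libraries left out, Prox1 ranged from -0.193 to 0.0954 in C362A against wildtype, from -0.0964 to 0.2 in knockout against wildtype and from -0.256 to 0.0546 in C362A against knockout, and Kdr from -0.0114 to 0.11 in the last. Over 36 gene results and 936 alternative values, 880 kept direction and side of the threshold, 16 lost a call (all Madcam1), 21 gained one and 19 turned direction. Prox1, with 123 to 342 counts per library, is the least precise of the 31 by depth.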
